A study of Sus scrofa with 9 samples.

Results

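The genes for the proteins of the cytosolic ribosome were followed through heat and recovery in cultured immature Sertoli cells of the pig. They were taken by name: protein-coding genes of the deposited table called RPL or RPS followed by a number, together with RPSA, RPLP0, RPLP1 and RPLP2, and without the kinases of the RPS6K family. The rule gave 57 of 20681 genes, 23 of the small subunit and 34 of the large subunit. Of the 57 genes, 54 passed the filter on low values, an FPKM (fragments per kilobase of gene, scaled to library size) of at least 1 in at least 3 of the 9 libraries, as did 11479 genes of the whole table. The genes that did not pass were RPL29, RPL10A and RPL3L, a form that human and mouse muscle uses in place of RPL3. RPL29 lay between 0.0355 and 0.682 FPKM, RPL10A between 0.0948 and 0.396, and RPL3L between 0.130 and 0.355, in every group.

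Cytosolic ribosomes join a small subunit, which reads the messenger RNA, to a large subunit, which forms peptide bonds. Each subunit takes up its proteins in fixed stoichiometry, and in mammals most of their mRNAs begin with a terminal oligopyrimidine (TOP) tract through which growth signals regulate mainly their translation. Many of these genes also carry small nucleolar RNAs (snoRNAs), guides of rRNA modification, in their introns, and several have a paralog that can replace or accompany the main protein.

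The cells came from fetal testes of 80 to 90 days of gestation and were grown at 37 °C in medium with 10% serum and 5% CO2. Control cells were sampled before heat, 6 h after seeding. For HS0.5, cells were kept at 43 °C for 0.5 h and taken without recovery (0 h). For HS0.5-R36, heating was followed by 36 h back at 37 °C. Each group had 3 libraries of total RNA. Culture time differs with the groups, so that heat and longer culture cannot be told apart at 36 h. The labels do not say whether replicates are separate cultures or animals, so the p-values measure only the spread between these libraries. In bulk RNA, fewer cells of a type and less RNA per cell cannot be told apart.

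Libraries held 18110565 to 21034021 recovered reads. Of 12 Sertoli cell markers, 9 were found by name, and 5 of these (SOX9, WT1, AMH, INHBB and KRT18) had a mean of at least 1 FPKM in control. There INHA and DMRT1 were listed at 0, and DHH and NR5A1 had means of 0.086 and 0.0062 FPKM. Single libraries touched the ribosomal protein genes. Control replicate 2 was the highest of all 9 libraries for 54 of the 54 tested genes, by a median of 0.73 on the log2(FPKM + 1) scale over the mean of control replicates 1 and 3 (range 0.31 to 1.18). It was the highest library for 29.9% of all tested genes and for 47.5% of the 1707 tested genes no longer than 1679 bp, the median length of the ribosomal protein genes (4128 bp for all tested genes). HS0.5-R36 replicate 1 was the lowest of its group for 43 of 54 genes (79.6%, against 42.2% of all tested genes), by a median of -0.27 against replicates 2 and 3. Results are therefore given with and without the former, and without the latter where that changed them.

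**Figure D1:**
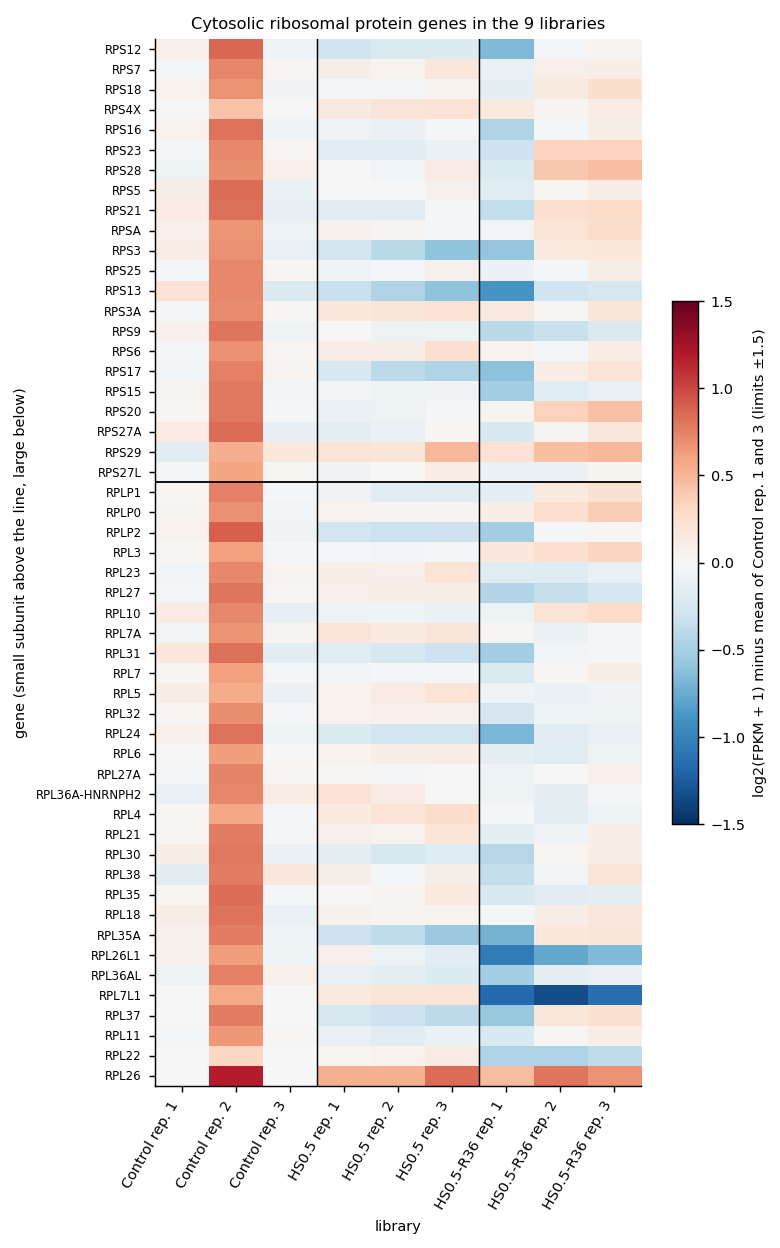
Each row is a tested ribosomal protein gene, a few being left out, and each column a library. Colour gives log2(FPKM + 1) minus the mean of control replicates 1 and 3, from blue (lower) to red (higher). Control replicate 2 is red in each row, and RPL7L1, RPL26L1 and RPL22 are blue in all 3 HS0.5-R36 libraries.

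Together the 57 genes took 3.12%, 4.70% and 3.03% of recovered reads in control replicates 1 to 3. They took 2.97%, 2.90% and 2.92% in HS0.5, and 3.36%, 3.89% and 4.08% in HS0.5-R36. The group values were 3.62% ± 0.94, 2.93% ± 0.04 and 3.78% ± 0.37 (SD, n = 3 each), and control without replicate 2 had a mean of 3.08% (n = 2). The HS0.5 libraries lay below all other libraries, by a narrow margin from control replicate 3. The HS0.5-R36 libraries lay within the range of control only through control replicate 2, and all 3 were above control replicates 1 and 3. In an exact two-sided permutation test, p was 0.10 for HS0.5 against control, the smallest that 3 libraries against 3 allow, 0.80 for HS0.5-R36 against control and 0.10 for HS0.5-R36 against HS0.5. These shares do not depend on the scaling of the FPKM.

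**Figure D2:**
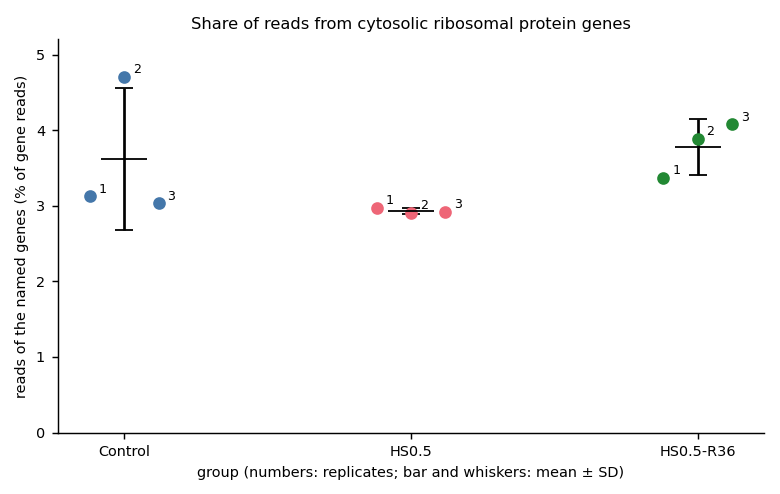
The vertical axis is the percent of recovered reads that fell in the 57 ribosomal protein genes. Points are libraries with their replicate number, and bars are the mean ± SD of 3 libraries. Control replicate 2, at 4.70%, is the highest point, and the HS0.5 libraries lie between 2.90% and 2.97%.

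The acidic stalk proteins, which recruit elongation factors to the large subunit, had the highest mean control levels per deposited gene length. RPLP1 had 2152, 3558 and 2050 FPKM in control, 2017, 1868 and 1859 in HS0.5, and 1891, 2333 and 2470 in HS0.5-R36. RPLP0 had 1540, 2415 and 1453 FPKM in control, 1551, 1532 and 1535 in HS0.5, and 1591, 1786 and 1929 in HS0.5-R36. RPLP2 had 1042, 1867 and 961.6 FPKM in control, 826.1, 803.1 and 807.9 in HS0.5, and 696.9, 984.6 and 1014 in HS0.5-R36. Control replicate 2 was far above the other 8 libraries for all 3 genes. Leaving it aside, RPLP0 was higher in HS0.5-R36 than in either other group, and RPLP1 and RPLP2 were lower in HS0.5 than in control. None of the 3 stalk genes passed the test with all 9 libraries. RPS27L, RPL26 and RPL22 had the lowest mean control levels of the tested genes, with 22.1, 24.0 and 54.6 FPKM. The highest mean was 117 times the lowest in control. The order of the 54 mean levels hardly differed between groups: Spearman's rho across genes was 0.99 for control with HS0.5 and 0.99 for control with HS0.5-R36. Deposited lengths ran from 372 to 7433 bp, longer for some genes than a ribosomal protein mRNA, so ranks between genes depend on those lengths while changes within a gene do not.

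At the end of heat, none of the 54 tested genes passed (limma, adjusted p under 0.05), against 3.62% of all tested genes (2.29% higher and 1.32% lower), and 7 of the 54 had an unadjusted p under 0.05. Their median log2 difference from control was -0.23, against -0.01 for all tested genes, and 50 of 54 differences were below 0. Without control replicate 2 the median was 0.00, with 27 differences on each side of 0. The 95% intervals had a median half-width of 0.44, or 0.21 without control replicate 2, and lay within 1 log2 unit of 0 for 45 and 54 of the 54 genes. Thus a 2-fold change lay outside the interval of most of these genes at 0 h. HS0.5 lay wholly below control for 17 of 54 genes (20% of all tested genes) and wholly above for 0 of 54 (20.5%). Since control replicate 2 was the highest library for all 54 genes, none could lie wholly above control. Without control replicate 2 the counts were 17 below (25% of all tested genes) and 16 above (28.2%).

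RPS13, a small subunit protein, had the lowest log2 difference of the 54 genes at 0 h. It had 271.9, 386.1 and 200.7 FPKM in control and 184.8, 170.5 and 153.8 in HS0.5. RPS3, which lines the mRNA entry channel, had 378.6, 563.6 and 325.8 FPKM in control and 289.8, 265.9 and 229.9 in HS0.5. All 3 HS0.5 libraries were below all control libraries for both genes, but the adjusted p was 0.11 for RPS13 (log2 difference -0.70 ± 0.24, SE) and 0.13 for RPS3 (-0.66 ± 0.24), with limma. Without control replicate 2 the differences were -0.46 (adjusted p = 0.19) and -0.43 (0.23).

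RPL26, a large subunit protein near the exit of the nascent peptide, was the single ribosomal protein gene that passed at 0 h once control replicate 2 was left out. It had 16.4, 38.8 and 16.7 FPKM in control, 24.4, 24.5 and 30.4 in HS0.5, and 23.4, 29.7 and 26.9 in HS0.5-R36. All 6 heated libraries were above control replicates 1 and 3 and below control replicate 2. Against those 2 control libraries RPL26 was higher by 0.63 ± 0.12 (SE) at 0 h (adjusted p = 0.027) and by 0.65 ± 0.12 at 36 h (adjusted p = 0.0013). In those comparisons 3.98% and 68.4% of all tested genes passed, 2.73% as rises and 1.25% as falls at 0 h. With all 9 libraries the differences were 0.24 (adjusted p = 0.56) and 0.26 (0.45).

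**Figure D3:**
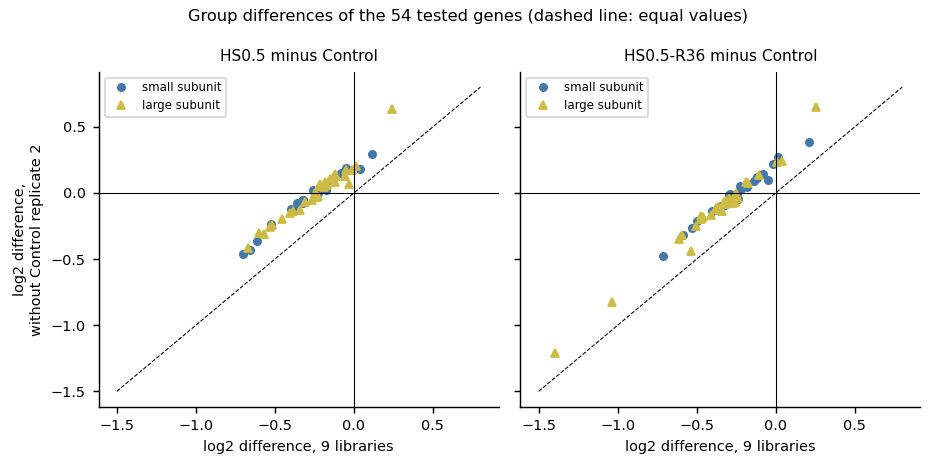
Each point is a tested gene, and both axes are differences in log2(FPKM + 1), with all 9 libraries (horizontal) and without control replicate 2 (vertical). Points lie above the dashed line of equal values in both panels, and the medians move from -0.23 to 0.00 at 0 h and from -0.29 to -0.05 at 36 h.

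After 36 h of recovery, 8 of 54 ribosomal protein genes had fallen and 0 had risen relative to control, where 34.6% of all tested genes fell, 28.5% rose and 63.1% passed in either direction. The 8 were RPL7L1, RPL26L1, RPS13, RPL27, RPL24, RPS9, RPL22 and RPS15. The median of the 54 differences was -0.29 (-0.06 for all tested genes), and 49 were below 0. For 15 genes HS0.5-R36 lay wholly below control (36.4% of all tested genes) and for 0 genes wholly above (30.5%). The latter count was fixed by control replicate 2, the highest library for all 54 genes. The small subunit genes had a median of -0.24 with 3 of 23 fallen, and the large subunit genes a median of -0.33 with 5 of 31 fallen.

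RPL7L1, a nucleolar relative of RPL7, had 71.6, 107 and 72.8 FPKM in control, 80.2, 82.2 and 82.8 in HS0.5, and 31.7, 28.2 and 32.5 in HS0.5-R36. The recovered libraries were far below both other groups, with no overlap. The gene lies on chromosome 7 from 37933535 to 37953078 in the deposited coordinates. It fell by 1.40 ± 0.14 (log2, SE) relative to control (adjusted p = 3.4e-05, limma) and by 1.38 ± 0.14 relative to HS0.5 (adjusted p = 3.2e-05). It passed under every alternative run for both 36 h comparisons, with adjusted p of at most 0.00049 and 0.00029.

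RPL26L1, a close copy of RPL26 on chromosome 16 from 51267588 to 51395039, had 84.7, 125.7 and 77.6 FPKM in control, 85.3, 77.1 and 71.9 in HS0.5, and 38.6, 47.4 and 50.9 in HS0.5-R36. All recovered libraries were below all others. RPL26L1 fell by 1.03 ± 0.18 relative to control (adjusted p = 0.00078, limma), and by 0.77 ± 0.18 relative to HS0.5 (adjusted p = 0.0042), where the adjusted p was 0.057 after quantile normalization and 0.054 with voom.

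RPL22, a large subunit protein that also binds cellular and viral RNA, had 50.2, 62.8 and 50.7 FPKM in control, 51.3, 52.6 and 55.1 in HS0.5, and 36.4, 36.3 and 38.4 in HS0.5-R36. The recovered libraries were close together and below the rest. RPL22 lies on chromosome 6 from 67092517 to 67126639. It fell by 0.54 ± 0.10 relative to control (adjusted p = 0.00091, limma) and by 0.51 ± 0.10 relative to HS0.5 (adjusted p = 0.0013), and neither fall passed after quantile normalization (adjusted p = 0.52 and 0.17), nor the second with voom (0.14).

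The other 5 falls at 36 h were smaller beside their error. RPL27 had 668.3, 1183 and 690.8 FPKM in control and 501.8, 532.5 and 568.6 in HS0.5-R36, without overlap (log2 difference -0.61 ± 0.20, adjusted p = 0.022). RPS13 had 126.0, 190.5 and 196.9 FPKM in HS0.5-R36, replicate 1 being far below the others (-0.72 ± 0.24, adjusted p = 0.027). RPS9, RPL24 and RPS15 differed by -0.58, -0.59 and -0.53 (adjusted p = 0.027, 0.048 and 0.046, limma). The recovered libraries of all 5 genes were below the control libraries. Without HS0.5-R36 replicate 1 only RPL7L1, RPL26L1 and RPL22 passed, of 57.7% of all tested genes, and the 5 differed by -0.57 for RPL27 (adjusted p = 0.065), -0.54 for RPS9 (0.078), -0.51 for RPS13 (0.098), -0.41 for RPS15 (0.15) and -0.41 for RPL24 (0.17). Without control replicate 2 the differences were -0.35 for RPL27, -0.32 for RPS9, -0.47 for RPS13, -0.27 for RPS15 and -0.32 for RPL24, of which those of RPL27 and RPS9 passed.

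Without control replicate 2 the 36 h comparison held rises as well as falls. The median of the 54 differences was -0.05, 7 genes had fallen (37.4% of all tested genes) and 5 had risen (31.0%). Recovered libraries lay wholly below the 2 control libraries for 15 genes (43.1% of all tested genes) and wholly above for 7 (36.1%). RPL7L1, RPL26L1, RPL22, RPL27 and RPS9 were among the falls, joined by RPL35 (-0.18), near the exit of the nascent peptide, and RPL23 (-0.17), which can bind MDM2 in human cells. The rises were RPL26 (0.65), RPS29 (0.39), RPS20 (0.27), RPL3 (0.24) and RPLP0 (0.24). RPL3, a protein close to the peptidyl transferase centre, had 777.5 and 758.2 FPKM in control replicates 1 and 3 and 859.4, 909.2 and 962.2 in HS0.5-R36, with control replicate 2 above all of them at 1175 FPKM.

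The direction of the small differences at 36 h also depended on how libraries were scaled. The size by which the deposited FPKM were scaled, divided by recovered reads, was 0.902 to 0.973 in control and HS0.5 but 1.17 to 1.19 in HS0.5-R36. Rescaling each library to the same FPKM sum moved the median of all tested genes at 36 h up by 0.30. The ribosomal protein genes then had a median of 0.06 relative to control, with 5 risen and 3 fallen, where 43.3% of all tested genes rose, 19.7% fell and 63.0% passed in all. After quantile normalization the median was 0.21, with 19 risen and 2 fallen, where 30.8% of all tested genes rose, 30.2% fell and 60.9% passed in all.

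Between HS0.5 and HS0.5-R36, neither of which holds control replicate 2, the median difference was -0.01 (-0.07 for all tested genes). Only RPL7L1, RPL26L1 and RPL22 passed, all falls, against 63.8% of all tested genes (28.8% rose and 35.0% fell). For 15 genes the recovered libraries lay wholly below HS0.5 (41.6% of all tested genes) and for 3 wholly above (33.6%). Leaving out control replicate 2, which enters this comparison only through the shared estimate of spread, made 13 falls and 3 rises pass (40.6% and 33.1% of all tested genes, 73.7% together). The added falls included RPL27, RPL23, RPL4, RPS9, RPL35, RPL6, RPL7A, RPL5 and RPL32, all between -0.43 and -0.19. The rises were RPS20 (0.34), RPL3 (0.27) and RPLP0 (0.20). After rescaling to the same sum, 23 genes had risen and 3 had fallen, with a median of 0.33, where 43.3% of all tested genes rose, 19.6% fell and 62.8% passed in all. After quantile normalization 35 had risen and 1 had fallen, where 32.1% of all tested genes rose, 32.5% fell and 64.6% passed in all.

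The other alternatives moved the background as well. With library weights 45.0% of all tested genes passed at 0 h, with 7 ribosomal protein genes risen and 12 fallen. At 0 h 0.933% passed with no filter and 3.54% with voom, a model for the recovered reads. For HS0.5-R36 against control, 40.8% of all genes passed with no filter, 63.4% when mitochondrial and the most abundant genes were left out of the scaling, 65.6% with the length trend removed, 64.4% with voom, 57.8% with only the compared groups and 77.1% with library weights. For HS0.5-R36 against HS0.5 the shares were 62.3%, 66.5%, 64.7%, 72.2% and 83.9% in the same order from the reduced scaling on.

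Ratios of paralogs within a library are free of library scaling and were taken for 5 pairs. RPL7L1 stood at 13.3%, 13.4% and 14.2% of the RPL7 level in control, at 15.7%, 16.0% and 15.9% in HS0.5, and at 7.03%, 5.27% and 5.81% in HS0.5-R36. RPL26L1 stood at 515%, 324% and 464% of RPL26 in control, at 350%, 315% and 236% in HS0.5, and at 165%, 159.6% and 189% in HS0.5-R36. The unnamed gene described as L22-like 1 stood at 238%, 301% and 184% of RPL22 in control, at 160.4%, 160.4% and 149% in HS0.5, and at 248%, 356% and 352% in HS0.5-R36. All recovered libraries had a lower RPL7L1 to RPL7 and RPL26L1 to RPL26 ratio than any other library. The L22-like 1 to RPL22 ratio was lowest in the 3 HS0.5 libraries, and its HS0.5-R36 values overlapped those of control.

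Over the 5 pairs, 15 comparisons were made with exact two-sided permutation tests. The smallest p that 3 libraries against 3 allow is 0.10, or 0.15 after adjustment over the 15, so that none could pass. By the exact test, the log2 ratio of RPL7L1 to RPL7 differed by -1.19 between HS0.5-R36 and control, and that of RPL26L1 to RPL26 by -1.32 (p = 0.10 each). The L22-like 1 to RPL22 ratio differed by -0.59 between HS0.5 and control (exact p = 0.10) and by 0.41 between HS0.5-R36 and control (exact p = 0.20). Near-identical copies can share reads, and the treatment of such reads was not stated, so the split between RPL26 and RPL26L1 is uncertain.

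**Figure D4:**
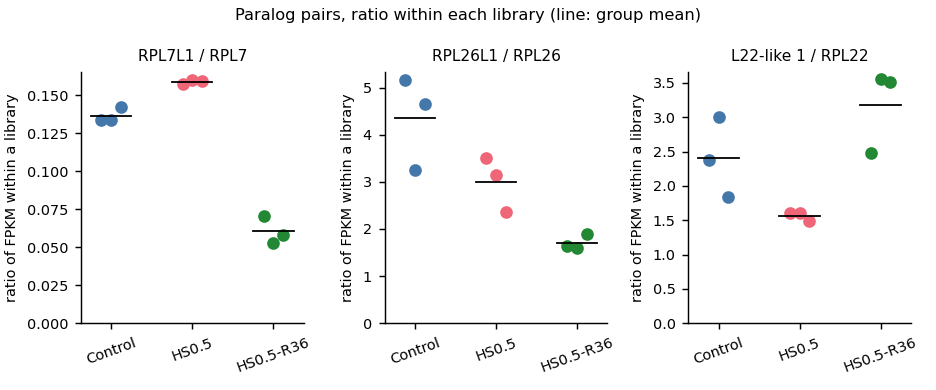
Points are the ratio of FPKM of 2 paralogs within a library, by group, and lines are group means of 3 libraries. The RPL7L1 to RPL7 and RPL26L1 to RPL26 ratios are lowest in HS0.5-R36, and the L22-like 1 to RPL22 ratio is lowest in HS0.5.

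RPL7 had 537.3, 801.9 and 512.7 FPKM in control, 509.2, 514.3 and 520.2 in HS0.5, and 450.6, 535.0 and 558.3 in HS0.5-R36, so that its groups overlapped apart from control replicate 2. The L22-like 1 gene had 119, 189 and 93.6 FPKM in control, 82.3, 84.3 and 82.4 in HS0.5, and 90.2, 129 and 135 in HS0.5-R36. Its HS0.5 libraries were below all control libraries, and the difference of -0.62 did not pass (adjusted p = 0.13, limma). RPS27L, the S27-like form, differed by -0.17 at 0 h and -0.24 at 36 h from control (adjusted p = 0.43 and 0.19). It stood at 9.43%, 8.99% and 8.83% of the unnamed S27 gene in control, at 7.66%, 7.02% and 5.75% in HS0.5, and at 6.36%, 7.79% and 7.83% in HS0.5-R36, below control in all 6 heated libraries (exact permutation p = 0.10 in both comparisons). RPL36AL, whose name marks it as the RPL36A-like form, differed by -0.41 and -0.50 (adjusted p = 0.20 and 0.052). It stood at 31.2%, 31.3% and 29.6% of RPL36A-HNRNPH2 in control, at 24.3%, 25.3% and 26.2% in HS0.5, and at 22.4%, 30.3% and 28.7% in HS0.5-R36. Its ratio was lower in all HS0.5 libraries than in control (exact permutation p = 0.10) and overlapped control at 36 h (exact p = 0.20).

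RPL5 and RPL11 join 5S rRNA in a particle that can bind the ubiquitin ligase MDM2. RPL5 had 385.4, 537.5 and 343.8 FPKM in control, 378.6, 397.2 and 418.5 in HS0.5, and 349.2, 339.5 and 350.3 in HS0.5-R36. RPL11 had 57.7, 92.4 and 59.2 FPKM in control, 53.99, 52.1 and 54.3 in HS0.5, and 49.8, 59.4 and 62.6 in HS0.5-R36. Leaving control replicate 2 aside, RPL5 overlapped control in both heated groups, while RPL11 lay below control in HS0.5 and overlapped it in HS0.5-R36. Neither gene passed with all 9 libraries. Of the 5 genes of this branch, SESN2, a stress-induced inhibitor of mTORC1, fell at 0 h and rose at 36 h (-0.43 and 0.77, adjusted p = 0.014 and 1.4e-05). CDKN1A, a cell cycle inhibitor, fell by 0.49 at 0 h (adjusted p = 0.029) and differed by 0.08 at 36 h (0.46). At 0 h neither SESN2 nor CDKN1A passed without control replicate 1 or any 1 of the HS0.5 libraries (adjusted p between 0.052 and 0.14), and SESN2 did not pass after rescaling to the same sum (0.066). After that rescaling CDKN1A was 0.43 higher at 36 h and passed (adjusted p = 0.0015). MDM4, a partner of MDM2, rose by 0.51 at 36 h (adjusted p = 0.021; 0.44 and 0.073 without HS0.5-R36 replicate 1), and MDM2 did not pass at either time. After rescaling to the same sum, 3 of the 5 genes had risen at 36 h and 0 had fallen.

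Other landmark proteins did not pass with all 9 libraries. RPSA, which joins the small subunit late and is also known as a laminin receptor, had 413.3, 621.6 and 371.8 FPKM in control, 409.9, 402.5 and 387.7 in HS0.5, and 381.7, 450.6 and 469.4 in HS0.5-R36. RPS6, the substrate of S6 kinase, had 196.6, 323.9 and 205.4 FPKM in control, 216.9, 215.2 and 237.4 in HS0.5, and 209.1, 196.6 and 216.7 in HS0.5-R36. RPS4X, encoded on the X chromosome, had 758.0, 1019 and 753.2 FPKM in control, 831.9, 863.4 and 879.2 in HS0.5, and 837.0, 774.6 and 814.8 in HS0.5-R36. Control replicate 2 was the highest library for all 3 genes, and the heated libraries otherwise lay near or above control replicates 1 and 3. RPL10, among the last proteins to join the large subunit, differed by -0.31 at 0 h and -0.11 at 36 h (adjusted p = 0.30 and 0.66), and RPL4, which lines the exit tunnel, by 0.01 and -0.27 (0.97 and 0.14).

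Genes that were lower at 0 h were also low in HS0.5-R36 replicate 1. Across the 54 genes, the 0 h difference from control replicates 1 and 3 and the deviation of HS0.5-R36 replicate 1 from replicates 2 and 3 had a Pearson's r of 0.76 and a Spearman's rho of 0.84, as a description, since genes share libraries. The 4906 other tested genes with a mean of at least 10 FPKM had an r of 0.61 and a rho of 0.74, so the pattern was not confined to ribosomal protein genes. RPL35A, chosen after its values were seen, had 88.2, 144.9 and 81.0 FPKM in control, 68.2, 64.8 and 57.1 in HS0.5, and 51.3, 94.2 and 96.4 in HS0.5-R36. Its recovered replicate 1 was thus below HS0.5 and the other replicates were above control replicates 1 and 3. RPS3 had 234.6, 388.4 and 392.1 FPKM in HS0.5-R36, with replicate 1 within the range of HS0.5 and the others above control replicates 1 and 3.

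Names in the table did not cover all ribosomal proteins. RPS14, RPS19, RPS27, RPL22L1, RPL36A, RPL39, RPL39L, RPL10L and RPS19BP1 had no row by that name. RPL36A-HNRNPH2, a read-through name, was kept by the rule. A further 73 unnamed protein-coding genes were described as cytosolic ribosomal proteins, and 36 passed the filter. With limma 0 of these 36 passed at 0 h, against 3.62% of all tested genes, and 3 had an unadjusted p under 0.05. At 36 h 2 had risen and 4 had fallen (28.5% and 34.6% of all tested genes), with a median of -0.27. The gene described as S19, mutated in Diamond-Blackfan anemia in humans, had 92.5, 167 and 81.5 FPKM in control, 85.9, 80.1 and 62.7 in HS0.5, and 71.9, 93.3 and 96.7 in HS0.5-R36, and did not pass (adjusted p = 0.20 and 0.30). Among those above 5 FPKM, the gene described as L23a, at the tunnel exit, fell by 0.66 at 36 h (adjusted p = 0.015), from 538.0, 872.8 and 702.3 to 504.4, 385.9 and 428.8 FPKM. The fall did not pass after rescaling to the same sum (-0.31, adjusted p = 0.13) or quantile normalization (-0.22, adjusted p = 0.31).

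The table had 40 snoRNA genes inside 20 of the ribosomal protein genes, their hosts, and 35 passed the filter. At 0 h, 6 of 35 fell and 1 rose (3.62% of all tested genes passed), with a median of -0.80, while 0 hosts passed. At 36 h 28 of 35 fell relative to control and 0 rose (34.6% of all tested genes fell), with a median of -1.41, and 15 fell relative to HS0.5 (35.0%). The 145 tested snoRNA genes outside these hosts had 7 falls and 3 rises at 0 h (median -0.16), and 71 falls and 2 rises at 36 h (median -0.89). Without control replicate 2, 4 snoRNA genes inside hosts fell at 0 h and 27 at 36 h (1.25% and 37.4% of all tested genes fell).

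SNORA62 in RPSA, an H/ACA guide of pseudouridylation, had 35.9, 47.9 and 53.7 FPKM in control, 6.496, 11.1 and 12.7 in HS0.5, and 9.35, 6.95 and 6.72 in HS0.5-R36. SNORD21 in RPL5, a C/D box guide of 2'-O-methylation, had 53.1, 64.5 and 63.4 FPKM in control, 11.3, 22.8 and 15.8 in HS0.5, and 15.5, 11.3 and 15.3 in HS0.5-R36. All 6 heated libraries were below all control libraries for both. SNORA62 fell by 2.10 ± 0.23 (log2, SE) at 0 h and by 2.43 ± 0.23 at 36 h (adjusted p = 0.0025 and 2.2e-05, limma), and SNORD21 by 1.84 ± 0.22 and 2.04 ± 0.22 (0.0032 and 4.3e-05). These rest on 374, 80 and 80 recovered reads for SNORA62 and 315, 84 and 93 for SNORD21, summed over the 3 libraries of control, HS0.5 and HS0.5-R36.

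Within a library, SNORA62 stood at 8.68%, 7.71% and 14.4% of the FPKM of RPSA in control, and at 1.58%, 2.77% and 3.28% in HS0.5. SNORD21 stood at 13.8%, 12% and 18.4% of RPL5 in control and at 2.996%, 5.74% and 3.77% in HS0.5. Both snoRNA genes thus lay lower relative to their hosts in every HS0.5 library than in any control library. The other 4 falls at 0 h were SNORD54 in RPS20 (-2.09), the unnamed snoRNA gene ENSSSCG00000034473 in RPL3 (-1.81), SNORA27 in RPL21 (-1.37) and SNORA52 in RPLP2 (-1.34), with adjusted p of 0.033, 0.027, 0.037 and 0.030.

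SNORA72 in RPL30 went the other way. It had 3.90, 4.77 and 3.84 FPKM in control, 11.3, 11.3 and 10.6 in HS0.5, and 2.81, 3.29 and 2.43 in HS0.5-R36. The HS0.5 libraries were close together and far above the rest, and the HS0.5-R36 libraries were below control. SNORA72 rose by 1.23 ± 0.11 at 0 h (adjusted p = 0.00086, limma), with 30 reads in control and 77 in HS0.5. Its host RPL30, a large subunit protein, differed by -0.46 (adjusted p = 0.19). At 36 h SNORA72 fell by 0.43 relative to control (adjusted p = 0.0058), but differed by 0.11 with the length trend removed, which did not pass. Its level relative to RPL30 overlapped control at 36 h (log2 ratio difference -0.19, exact permutation p = 0.60).

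The remaining falls at 36 h covered hosts of both subunits. In small subunit hosts they included SNORD100, SNORD101 and 1 unnamed gene in RPS12, both SNORD73 genes in RPS3A, 1 of the 2 SNORD14 genes in RPS13, and SNORD15 in RPS3. In large subunit hosts they included SNORD83A and SNORD83B in RPL3, SNORD24 and SNORD36 in RPL7A, SNORA70 in RPL10, SNORA3A in RPL27A, SNORD18 in RPL4, SNORA66 in RPL5 and 1 unnamed gene in RPL32. The log2 differences of those named ran from -2.03 for SNORD101 to -0.90 for SNORA66. Many rest on few reads: SNORD101 had 52 in control and 13 in HS0.5-R36. The snoRNA genes are 55 to 151 bp long. Once the dependence of values on gene length had been taken out of every library, 12 of 35 fell at 36 h and 0 rose. Their median was then -0.87, and 65.6% of all tested genes passed in either direction. The share of all tested genes that fell is not given for that setting. The count of 12 of 35 is therefore not read as a result about these snoRNA genes. Among the 145 tested snoRNA genes outside ribosomal protein genes, 28 fell and 7 rose in that setting (median -0.27). Reads of an unspliced host intron and of a processed snoRNA cannot be told apart in these values.

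**Figure D5:**
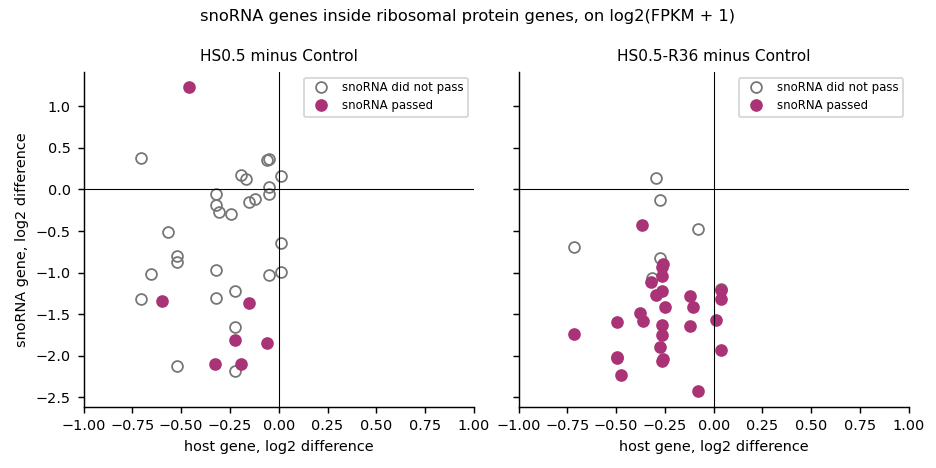
Each point is 1 of the 35 tested snoRNA genes, with the log2 difference of its host on the horizontal and its own on the vertical axis, for HS0.5 (left) and HS0.5-R36 (right) against control. Filled points passed. At 36 h nearly all points lie below 0 on the vertical axis, while hosts lie between -0.72 and 0.04.

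Further lists of the translation machinery were counted at 36 h relative to control, where 34.6% of all tested genes fell and 28.5% rose. Of 17 tested chaperones and assembly factors of ribosomal proteins, 15 fell and 0 rose (median -1.05, against -0.06 for all tested genes), and 13 to 15 fell under each of the scaling and length alternatives. GRWD1, the chaperone of RPL3, had 35.5, 50.6 and 31.5 FPKM in control, 33.6, 31.1 and 29.4 in HS0.5, and 9.72, 9.97 and 10.2 in HS0.5-R36 (-1.84, adjusted p = 8.6e-06, limma). EIF6, which keeps free large subunits from joining small ones, fell by 1.16 and PDCD2L, a relative of the RPS2 chaperone, by 1.40 (adjusted p = 0.00033 and 1.6e-05). The recovered libraries of GRWD1 were all below the other 6 libraries.

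Among 69 genes for proteins of the mitochondrial ribosome, 66 were tested, and 50 fell and 0 rose at 36 h, with a median of -0.59, while 0 passed at 0 h. Control replicate 2 was the highest of the 9 libraries for 60 of the 66. Without it 46 fell and 1 rose at 36 h (37.4% and 31.0% of all tested genes), with a median of -0.39. MRPL40 fell by 1.68 and MRPL20 by 1.39 (adjusted p = 6.2e-05 and 0.00017). After rescaling to the same sum 28 of the 66 fell and 3 rose, where 19.7% of all tested genes fell and 43.3% rose. Of 16 other genes with TOP mRNAs, 7 fell and 1 rose (34.6% and 28.5% of all tested genes), a split that turned to 3 falls and 4 rises after the same rescaling. NPM1, a nucleolar chaperone, had 202, 262 and 208 FPKM in control and 72.7, 64.0 and 69.3 in HS0.5-R36 (-1.68, adjusted p = 3.3e-06), and HNRNPA1, a splicing regulator, fell by 1.64 (1.4e-06). EEF2, the translocation factor, differed by -0.11 and RACK1, a protein bound to the small subunit, by -0.17 (adjusted p = 0.36 and 0.42), but by 0.24 and 0.18 after rescaling to the same sum.

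Of 13 regulators of TOP mRNAs and of ribosome synthesis, 7 fell and 3 rose at 36 h (34.6% and 28.5% of all tested genes), and 3 fell and 4 rose after rescaling to the same sum. MYC, an activator of ribosome synthesis, had 116, 126 and 118 FPKM in control, 125, 126 and 106 in HS0.5, and 31.0, 28.8 and 29.6 in HS0.5-R36 (-1.97, adjusted p = 4.1e-07). EIF4EBP1, an inhibitor of cap-dependent translation that mTOR controls, fell by 1.06 and LARP4, which binds poly(A) tails, by 0.68 (adjusted p = 0.00045 and 0.0043). Of 5 ubiquitin ligases and partners listed for the clearance of surplus proteins or stalled chains, HERC1 rose by 0.89 at 36 h (adjusted p = 0.0016, limma). In the same test UBE2O fell by 0.44 at 0 h (0.047). The fall of UBE2O did not pass without any 1 of the control or HS0.5 libraries (adjusted p between 0.051 and 0.19), after rescaling to the same sum (0.10) or after quantile normalization (0.057). No regulator, assembly factor or mitochondrial ribosomal protein gene passed at 0 h. Whether any of these lists differed from the ribosomal protein genes was not tested.

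The profile over the 9 libraries that was most like the mean profile of the 54 genes, among genes outside the set with a mean of at least 10 FPKM, was that of ATP5MD (Pearson's r of 0.996, n = 9). ATP5MD, a small subunit of mitochondrial ATP synthase, had 91.8, 159.9 and 87.7 FPKM in control, 87.0, 85.2 and 91.5 in HS0.5, and 72.9, 88.1 and 90.1 in HS0.5-R36. The unnamed gene described as L13 (0.992) and POLR2G, a subunit of RNA polymerase II (0.989), came next. Control replicate 2 was the highest library for all 3 genes.

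Markers of the culture moved with recovery. The 5 tested Sertoli cell markers fell at 36 h, with a median of -1.35, where 34.6% of all tested genes fell. The summed FPKM of the 9 found went from 135 to 201 in control to 62.8 to 68.8 in HS0.5-R36. Most of that sum was KRT18, with means of 113 FPKM in control and 51.0 in HS0.5-R36. In control AMH had a mean of 22.3 FPKM, and SOX9, WT1 and INHBB had 6.47, 7.96 and 6.98. The 7 kidney tubule markers found, a list written after these data had been seen, summed to 127 to 134 in control, 104 to 111 in HS0.5 and 427 to 453 in HS0.5-R36. Of these, 6 of 7 rose at 36 h, where 28.5% of all tested genes rose. Peritubular myoid markers summed to 634 to 972, 622 to 679 and 116 to 157 in the 3 groups. Nearly all of that sum was TAGLN, with means of 740, 642 and 136 FPKM. DES had means of 6.93, 5.51 and 1.36 FPKM, and ACTA2, MYH11 and CNN1 had means under 1 FPKM in every group. Leydig cell markers summed to at most 4.95, germ cell markers to at most 1.24, endothelial markers to at most 1.32 and blood markers to at most 9.63 in any library. The Leydig marker CYP11A1 had means of 0.12, 0.082 and 1.95 FPKM in the 3 groups. It rose by 1.40 at 36 h (adjusted p = 3.7e-06, limma), while STAR, the other Leydig marker tested, did not pass (0.32). The blood marker CD68 had means of 2.08 FPKM in control and 3.72 in HS0.5-R36. CD68 rose by 0.62 at 36 h (adjusted p = 0.00013, limma), while CD14, the other blood marker tested, did not pass (0.18). The part of these shifts in the ribosomal protein values was not tested.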

How the data were processed

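RNA sequencing was done on 9 libraries, 3 per group. The submitters' processing notes name bcl2fastq, which makes read files from base calls, and the aligner HISAT2 2.0.5. The genome build, the counting tool and strandedness are not given in the sources used here. The authors deposited FPKM per gene with a gene length, coordinates and a description. FPKM times length gave whole multiples of a constant for 100% of values (tolerance 1e-06), so reads could be recovered. No sequence of the genes is shown, and values of a few genes are not reported here. Of the 57 genes, 56 had a name found in RefSeq (Sscrofa11.1) and 55 overlapped that gene.

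A linear model with 1 mean per group was fitted to log2(FPKM + 1) of all 9 libraries by limma 3.58.1 (R 4.3.3), with eBayes and a trend. Two-sided p-values were adjusted over 11479 genes by Benjamini-Hochberg, with a threshold of 0.05. Genes tested had an FPKM of at least 1 in at least 3 libraries. The added 1 pulls changes of low genes towards 0. The fit was tested on simulated data. Exact permutation tests used SciPy 1.17.1.

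Ribosomal protein genes, lists, ratios and alternatives were chosen with earlier results of these data known. Named were assembly landmarks, the 5S particle, paralogs, up to 4 passing rises and falls per comparison, the 3 highest and 3 lowest levels, passing snoRNA genes, up to 2 genes per list and the 3 most similar profiles. The other genes named were chosen after their values were seen. Replicate numbers were not treated as pairs, since the labels state no pairing. Correlations within a number ran from -0.43 to 0.27. They were taken on deviations from means of 3 libraries, so they cannot exclude pairing. Replicates of a group differed by more than counting noise (chi-square per degree of freedom 3.18 to 72.2). Alternatives changed the pseudocount, filter, scaling, length trend, count model (voom on recovered reads), library weights, groups fitted and replicates.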

Additional observations from a re-analysis of the deposited data

How the results depend on the processing

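RPL7L1 fell at 36 h under all alternatives run, as did RPL26L1 relative to control. Depth limits mainly the snoRNA genes, many with few reads per group. The spread is set largely by control replicate 2 and HS0.5-R36 replicate 1, and the authors' scaling between libraries is not described. The cause of each change below was not tested.

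Leaving out 1 library at a time gave 0 to 1 rises at 0 h (1 without control replicate 2), and 3 to 9 snoRNA genes called. For HS0.5-R36 against control it gave 0 to 5 rises and 3 to 15 falls. The extremes were 5 rises without control replicate 2, where 31.0% of all tested genes rose, and 15 falls without control replicate 3. Without HS0.5-R36 replicate 1 there were 3 falls, where 57.7% of all tested genes passed in either direction. For HS0.5-R36 against HS0.5, leaving out 1 library gave 0 to 3 rises, 3 to 13 falls and a median of -0.092 to 0.083. The 13 falls came without control replicate 2, where 40.6% of all tested genes fell. Shares of all tested genes are not given here for the other left-out libraries or for the replicate block. Those counts are therefore not read as results about the ribosomal protein genes. With the replicate block, 0 genes passed at 0 h, 9 fell at 36 h relative to control and 3 relative to HS0.5, so that no count moved by 1.5 times. Pairing by number has no basis in the labels, and 2 of 9 libraries correlated best with their own number.

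For HS0.5 against control, library weights gave 7 rises, 12 falls and 22 snoRNA genes called. The latter were 3 with no filter and 4 with voom. For HS0.5-R36 against control, rises and falls were 5 and 3 after rescaling to the same sum, 7 and 3 when mitochondrial and the 20 most abundant genes were left out of that sum, 19 and 2 after quantile normalization, and 3 and 3 with voom. There were 3 falls with no filter and 3 with only the compared groups, 8 rises with library weights and 1 with the length trend removed. The medians were 0.056 (same sum), 0.084 (reduced sum), 0.21 (quantile), 0.032 (voom) and 0.015 (library weights). Removing the length trend left 12 snoRNA genes.

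For HS0.5-R36 against HS0.5, rises were 23 (same sum), 18 (reduced sum), 35 (quantile), 1 (length trend), 18 (voom), 2 (compared groups) and 19 (library weights). Falls were 1 (quantile), 6 (length trend), 1 (voom), 14 (compared groups) and 15 (library weights). The medians were 0.33, 0.29, 0.36, 0.36 (voom) and 0.070 (library weights). The snoRNA count was 9 with the length trend removed and 7 with voom. As shares of the FPKM sum the 57 genes held 7.37%, 6.04% and 7.84% in control, HS0.5 and HS0.5-R36, and without mitochondrial reads 3.10% in HS0.5.

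Some genes changed sign and passed in the other direction. For HS0.5-R36 against control these were RPS4X (0.30 same sum, 0.33 reduced sum, 0.26 quantile, 0.28 voom), RPL7 (0.19 quantile), RPSA (0.30 reduced sum, 0.30 quantile, 0.17 library weights), RPL5 (0.25), RPS6 (0.42), RPL4 (0.32) and RPL11 (0.30), all quantile, and EEF2 (0.24 same sum, 0.26 reduced sum). SNORA72 turned to 0.11 with the length trend removed, where it did not pass. For HS0.5-R36 against HS0.5 these were RPS4X (0.26 same sum, 0.22 reduced sum, 0.28 voom), RPL7 (0.34, 0.29, 0.25 quantile, 0.36 voom), RACK1 (0.33 same sum, 0.29 reduced sum) and EEF2 (0.31, 0.27, 0.33 voom). With quantile normalization they were RPS13 (0.51), RPS6 (0.42), RPL4 (0.25), RPL36AL (0.39) and MRPL12 (0.45), and with the same sum RPS27L (0.26). RPL7L1 at 0 h turned to 0.18 with library weights.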
